A study of Mus musculus with 12 samples.

Results

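The transcripts of 8 proteins of the dense-core secretory granule were followed in mouse pancreatic islets: the granins Chga, Chgb, Scg2 and Scg3, the granin-like precursor Vgf, the luminal protein Resp18, and the granule membrane proteins Ptprn and Ptprn2. They were chosen by gene name, and each matched 1 entry of the 24078 in the islet expression table. RNA sequencing was done on islets of 12 male mice, 4 wild-type (WT), 4 heterozygous (Wfs1HZ) and 4 homozygous (Wfs1KO) for the Wfs1tm1Koks allele, in which a LacZ cassette replaces most of exon 8 of Wfs1, so that the islets of Wfs1KO mice can still make a truncated WFS1 protein fused to LacZ. The mice were F2 hybrids of C57BL/6 and another inbred strain, 5 to 6 months old, untreated, and the islets were handpicked after collagenase digestion and kept overnight in high-glucose medium before RNA was extracted. Each library is 1 animal. Values are RPKM, reads scaled to transcript length and library size, which set transcripts of different length on 1 scale.

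Dense-core granules store peptide hormones until a stimulus releases them. Granins are acidic proteins that aggregate with the hormones in the calcium-rich, mildly acidic lumen of the trans-Golgi network and of the young granule, and several are cut by prohormone convertases into smaller peptides. In the islet they are made by the beta, alpha, delta and PP cells alike, in proportions that differ between the cell types. Ptprn, known as IA-2, and Ptprn2, known as phogrin, are receptor-type tyrosine phosphatase homologues that span the granule membrane, lack the usual phosphatase activity and are autoantigens of type 1 diabetes. WFS1, the protein lost in Wolfram syndrome, is a membrane protein of the endoplasmic reticulum and has also been placed in secretory granules.

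The genes lie on mouse chromosomes 1, 2, 5, 9 and 12 (GRCm38, GENCODE M21). Resp18 (chr1:75272199-75278415) and Ptprn (chr1:75247027-75264502) are close neighbours on the minus strand, and each overlaps an annotated antisense gene over exons, Gm28902 and Gm28294, so that reads of those partners cannot be told apart from theirs without strand information. Scg2 is at chr1:79434669-79440120, Chgb at chr2:132781278-132795079, Scg3 at chr9:75643189-75684056, Vgf at chr5:137026392-137033351, Chga at chr12:102554969-102565028 and Ptprn2, which spans 791130 bases, at chr12:116485720-117276849.

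The granin promoters are known for the cyclic AMP response element, the site of the CREB family of transcription factors. The 4 promoters shown were chosen to include that of Resp18, the member for which no pair passed the test. They also include those of Chgb and Scg2, which had the highest Pearson's r of any pair on the RPKM scale, though not by rank. Each is the RefSeq sequence (GRCm38.p6) from 250 bases before to 50 bases after the annotated start, read 5′ to 3′ on the gene's strand, with the full element TGACGTCA or its variant TGACGTAA in capitals. The windows are chr2:132781392-132781691 (plus strand) for Chgb, chr1:79439977-79440276 (minus) for Scg2, chr12:102554691-102554990 (plus) for Chga and chr1:75278366-75278665 (minus) for Resp18.
Chgb: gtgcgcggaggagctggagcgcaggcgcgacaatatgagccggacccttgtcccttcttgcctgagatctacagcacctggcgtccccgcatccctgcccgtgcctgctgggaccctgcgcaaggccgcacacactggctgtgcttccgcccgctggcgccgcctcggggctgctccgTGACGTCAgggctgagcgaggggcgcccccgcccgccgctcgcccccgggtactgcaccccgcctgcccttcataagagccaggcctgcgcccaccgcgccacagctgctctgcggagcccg
Scg2: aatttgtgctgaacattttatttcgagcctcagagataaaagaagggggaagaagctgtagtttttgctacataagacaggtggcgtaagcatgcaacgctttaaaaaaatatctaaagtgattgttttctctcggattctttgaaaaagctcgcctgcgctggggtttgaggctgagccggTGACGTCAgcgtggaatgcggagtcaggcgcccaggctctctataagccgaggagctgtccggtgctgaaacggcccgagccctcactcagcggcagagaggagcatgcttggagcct
Chga: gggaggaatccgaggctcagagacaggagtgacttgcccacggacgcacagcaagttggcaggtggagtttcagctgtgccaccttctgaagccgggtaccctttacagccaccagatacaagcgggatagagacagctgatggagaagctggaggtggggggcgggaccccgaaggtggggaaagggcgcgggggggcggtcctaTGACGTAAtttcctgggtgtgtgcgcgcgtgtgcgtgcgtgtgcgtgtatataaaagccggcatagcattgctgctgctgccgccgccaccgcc
Resp18: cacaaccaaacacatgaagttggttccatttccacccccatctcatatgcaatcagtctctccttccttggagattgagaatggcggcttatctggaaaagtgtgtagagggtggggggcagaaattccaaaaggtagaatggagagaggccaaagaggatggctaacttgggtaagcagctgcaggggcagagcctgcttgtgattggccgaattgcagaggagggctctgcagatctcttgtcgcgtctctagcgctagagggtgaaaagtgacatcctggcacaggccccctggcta

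Entries for 7 of the 8 members were found, with 2 alternative starts for Ptprn. TGACGTCA, which reads the same on both strands, began 72 bases before the start of Chgb and 68 bases before that of Scg2 and occurred in no other member window; 1.79% of all 32851 promoter windows hold it. TGACGTAA or its reverse complement TTACGTCA, held by 0.499% of all windows, was found in Chga alone, 44 bases before the start. The shorter core TGACG or its reverse complement CGTCA, which both longer motifs contain, was also present in Ptprn and Scg3 and is held by 20.8% of all windows. None of these letters stood in the windows of Resp18 or Ptprn2. These are matches of letters only.

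The genotype labels were checked on Wfs1 itself, which was 28.6 ± 3.84 RPKM in WT, 11.1 ± 5.59 in Wfs1HZ and 4.40 ± 1.83 in Wfs1KO islets (mean ± SD, n = 4 each). Both mutant groups lay below all WT libraries, but the Wfs1HZ range (4.69 to 16.4 RPKM) overlapped that of Wfs1KO (2.45 to 6.61). The hormone transcripts of the islet were present in every library, although the beta cell factor Mafa was listed at 0 in all 4 WT libraries. Depth, estimated as the smallest that fits the read-sized steps of short transcripts, ran from 2181500 to 9589500 reads. The paper reports more reads per sample than this. The libraries differed widely in the transcripts of other cells. The summed acinar markers, digestive enzymes and their regulators, ran from 8159 to 297345 RPKM, and insulin transcripts (Ins1 plus Ins2) from 11403 to 168273. Wfs1HZ replicate 2 and Wfs1KO replicate 4 stood apart, with the lowest acinar sums (8598 and 8159). Their insulin-to-glucagon transcript ratios were also the lowest (0.0734 and 0.0876, against 0.156 to 2.30 in the other 10). Wfs1HZ replicate 2 had the lowest depth estimate as well, although it had the most transcripts above 0 (20954 of 24078). In bulk islets, fewer cells of a type and less RNA per cell cannot be told apart.

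All 8 transcripts were detected in all 12 animals, and their levels spanned more than 2 orders of magnitude. Scg2, the secretoneurin precursor, led with a mean of 1445 ± 516 RPKM (SD, n = 12). Chgb followed at 769 ± 233, then Resp18 at 619 ± 245, Scg3 at 359 ± 117 and Chga at 342 ± 136. The membrane pair was lower, with Ptprn2 at 80.8 ± 26.7 and Ptprn at 74.3 ± 29.7, and Vgf came last at 7.16 ± 4.03. Scg2 exceeded Chgb in 12 of 12 animals, Chga exceeded Ptprn2 in 12 of 12, and Ptprn exceeded Vgf in 12 of 12. The ranges of the last 2 of these pairs did not overlap at all. The ranges of the remaining neighbours overlapped and their order was not the same in every animal: Chgb was above Resp18 in 8 of 12 animals, Resp18 above Scg3 in 10, Scg3 above Chga in 8 and Ptprn2 above Ptprn in 8. Among all transcripts of a library, from the highest down, Scg2 held a rank between 13 and 37 and Vgf a rank between 2985 and 17137. Together the members made up 2247 to 5229 RPKM, or 0.365% to 1.03% of all RPKM in a library.

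**Figure D1:**
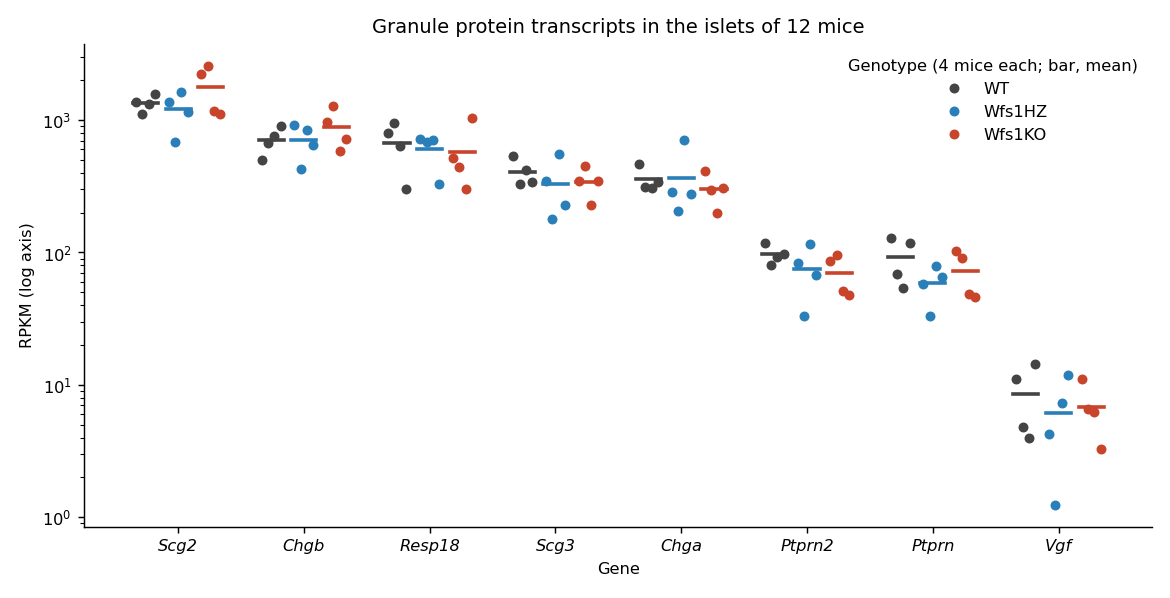
RPKM of the 8 transcripts on a log axis, 1 point per mouse and bars at the mean of 4 mice, in WT, Wfs1HZ and Wfs1KO islets. The 3 genotypes overlap for every transcript, and the levels run from Scg2 (688 to 2565 RPKM) down to Vgf (1.24 to 14.3 RPKM).

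The comparison of Wfs1KO with WT islets asked how the granule transcripts stood when WFS1 was truncated. None of the 8 passed a test of the difference. Scg2 and Chgb had higher means in Wfs1KO islets and the other 6 had lower means, and the ranges of the 2 genotypes overlapped for each transcript.

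Scg2 was 1376, 1118, 1329.5 and 1572 RPKM in WT replicates 1 to 4, 1381, 688, 1639 and 1141 in Wfs1HZ, and 2246, 2565, 1173 and 1108 in Wfs1KO islets. Wfs1KO replicates 1 and 2 stood above all other libraries and replicates 3 and 4 within or just below the WT range. The difference between Wfs1KO and WT was 0.31 on the log2(RPKM + 0.1) scale (limma SE 0.44, exact permutation p = 0.4, two-sided, n = 4 and 4). Chgb, the most abundant granin after Scg2 and like it a soluble matrix protein, was 501, 671, 762 and 898 RPKM in WT, 923, 424, 842 and 652 in Wfs1HZ, and 964, 1282, 581 and 721 in Wfs1KO islets. The same pair of Wfs1KO libraries was high, and the difference from WT was 0.29 (SE 0.35, exact permutation p = 0.371).

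Chga, the founding granin and precursor of pancreastatin and vasostatin, ranged from 307 to 467 RPKM in WT, 207 to 701 in Wfs1HZ and 197 to 409.8 in Wfs1KO islets. It differed between Wfs1KO and WT by -0.27 (SE 0.28, exact permutation p = 0.314). Scg3, which ties granin aggregates to the cholesterol-rich granule membrane, ranged from 331 to 533 RPKM in WT, 180.3 to 559 in Wfs1HZ and 229 to 450.4 in Wfs1KO islets, with a difference of -0.27 (SE 0.28, exact permutation p = 0.457). Wfs1HZ replicate 3 held the highest value of both genes and Wfs1HZ replicate 2 the lowest value of Scg3.

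Vgf, a neuropeptide precursor induced by growth factors, was 11.2, 4.77, 4.00 and 14.3 RPKM in WT, 4.25, 1.24, 7.28 and 11.8 in Wfs1HZ, and 11.01, 6.57, 6.26 and 3.30 in Wfs1KO islets. It varied 11.5-fold between animals, more than any other member, and its lowest value rested on about 6.91 reads. Its difference between Wfs1KO and WT was -0.25 (SE 0.48, exact permutation p = 0.714). Resp18, a protein of the endoplasmic reticulum and the secretory pathway whose sequence is related to the luminal part of Ptprn, was 797, 956, 637 and 301 RPKM in WT, 714, 680.0, 712 and 331 in Wfs1HZ, and 519.5, 445, 304 and 1029.9 in Wfs1KO islets. Its single highest value was in Wfs1KO replicate 4, in which Scg2, Vgf, Ptprn and Ptprn2 had their lowest Wfs1KO values, and the difference between Wfs1KO and WT was -0.25 (SE 0.48, exact permutation p = 0.657).

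Ptprn was 128, 68.4, 53.8 and 117 RPKM in WT, 58.0, 33.1, 79.2 and 65.2 in Wfs1HZ, and 103, 90.8, 48.8 and 46.4 in Wfs1KO islets, a Wfs1KO to WT difference of -0.35 (SE 0.37, exact permutation p = 0.457). Ptprn2 was 118, 79.95, 92.6 and 97.9 RPKM in WT, 83.2, 32.9, 117 and 67.7 in Wfs1HZ, and 86.3, 95.3, 50.7 and 47.7 in Wfs1KO islets. Wfs1KO replicates 3 and 4 lay below all WT libraries and replicates 1 and 2 within their range. Its difference of -0.53 (SE 0.26, exact permutation p = 0.171) was the largest of the 8.

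In the limma fit across the 21701 transcripts whose 12 libraries averaged 0.1 RPKM or more, 0 of the 8 members passed a Benjamini-Hochberg adjusted p under 0.05 between Wfs1KO and WT (adjusted p 0.879 to 0.971), against 0.0138% of all transcripts. No member had an unadjusted limma p under 0.05, against 5.64% of all, none passed the exact permutation test, and none had ranges that did not overlap, against 2.74% of all. The 6 members with lower means compare with 42.2% of all transcripts that were lower. Each mean was of 4 animals, and the smallest exact p that 4 against 4 allow is 0.0286.

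Between Wfs1KO and Wfs1HZ islets no member passed a test either. The differences ran from -0.16 for Resp18 (SE 0.47) to 0.52 for Scg2 (SE 0.58). In Wfs1KO islets 5 members were higher and 3 lower, and 53.5% of all transcripts were higher. Among transcripts averaging 1 RPKM or more, 8135 of 13357 were higher. No member passed the adjusted limma test (adjusted p = 1 for each; 0.0% of all transcripts passed), none had an unadjusted p under 0.05 (2.45% of all), and none had separate ranges (1.43% of all). Wfs1 itself did not pass the adjusted limma test in this comparison either (difference -1.24, SE 0.46). Failing that test therefore does not show that a member was unchanged. Without Wfs1HZ replicate 2 the number of members lower in Wfs1KO islets was 5, and without Wfs1KO replicate 3 it was 0.

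In Wfs1HZ islets all 8 members had lower means on the log2 scale than in WT islets, while 46.5% of all transcripts were lower. The differences ran from -0.66 for Vgf (SE 0.67), -0.62 for Ptprn (SE 0.35) and -0.50 for Ptprn2 (SE 0.35) to -0.02 for Chgb (SE 0.39). Among transcripts averaging 1 RPKM or more, 5733 of 13357 were higher in Wfs1HZ islets. None passed the adjusted limma test (adjusted p = 1 for each; 0.0% of all transcripts), none had an unadjusted p under 0.05 (2.35% of all) and none had separate ranges (1.66% of all). Wfs1 itself did not pass the adjusted test here (difference -1.52, SE 0.37), although its Wfs1HZ and WT ranges did not overlap. It passed only between Wfs1KO and WT (difference -2.76, SE 0.29). Failing the test therefore does not show that a member was unchanged. The common direction of the members leaned on 1 library, Wfs1HZ replicate 2. That library held the lowest value of Chgb, Scg2, Scg3, Vgf, Ptprn and Ptprn2. Without it the number of lower members was 5, and the median of all transcripts moved to -0.19. These comparisons share the WT or the Wfs1HZ animals, so their directions are not independent of each other.

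**Figure D2:**
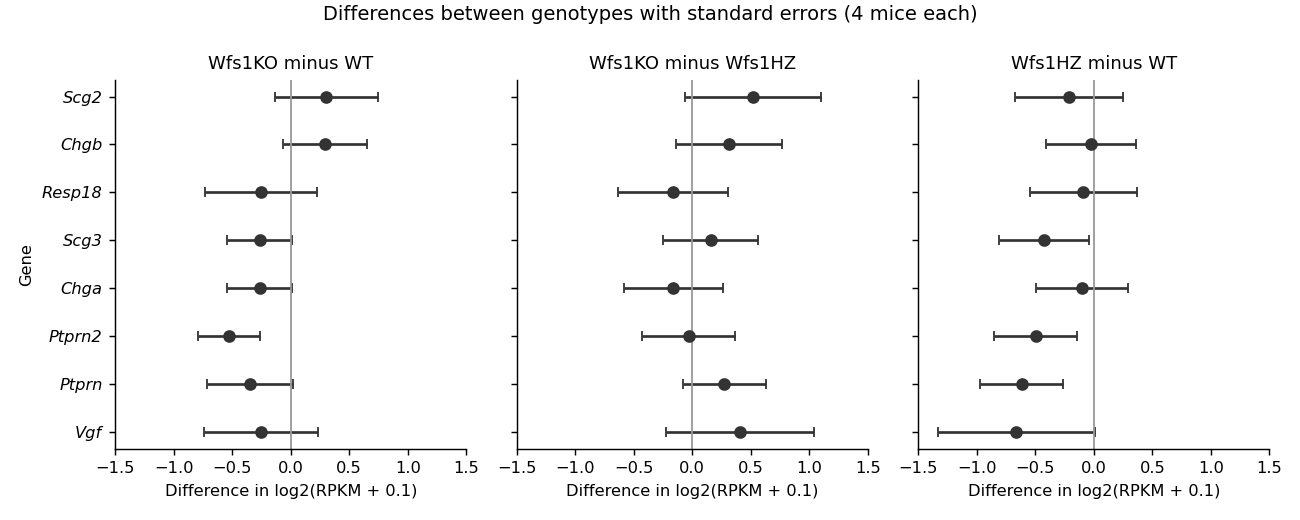
Differences between genotypes in log2(RPKM + 0.1) for each transcript, with limma standard errors as bars (4 mice per genotype). No transcript passed the adjusted test, and the points lie between -0.66 and 0.52.

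A ratio of 2 transcripts within a library does not depend on how libraries are scaled to each other, and 11 such log2 ratios were compared in each of the 3 comparisons, 33 tests in all. Only Ptprn2 relative to the mean of the other 7 members separated 2 genotypes. The log2 ratio was -1.32, -1.46, -1.19 and -1.42 in WT, -1.38, -1.85, -1.37 and -1.55 in Wfs1HZ, and -1.76, -1.53, -1.67 and -2.08 in Wfs1KO islets. Every Wfs1KO value was below every WT value, by a narrow margin between Wfs1KO replicate 2 and WT replicate 2, whereas Wfs1HZ values overlapped both. The difference between Wfs1KO and WT was -0.41 (SE 0.13, exact permutation p = 0.0286, the smallest this design gives; 0.707 after Benjamini-Hochberg adjustment over the 33 tests). Relative to the mean of the 8 members, 0.392% of the other 21693 transcripts were lower in Wfs1KO than in WT islets without overlap and 3.42% were higher. It was -0.31 without Wfs1KO replicate 4 and between -0.49 and -0.31 whichever library was left out. With 3 animals in a group the exact test cannot go below 0.0571. The sum of 6 stromal markers was 56.6 to 132 RPKM in Wfs1KO and 18.6 to 56.9 in WT islets, with 5 of the 6 higher. The sum of 8 activity-induced genes was 242 to 368 and 101 to 209, with 7 of the 8 higher and Npas4 lower without overlap. That of 5 endothelial markers was 72.8 to 89.5 and 25.6 to 80.0, with all 5 higher. That of 9 beta cell markers was 22340 to 91413 and 32017 to 179836, with 6 of the 8 that could be tested lower and 2 higher. Of the alpha and acinar markers, 5 of 5 and 9 of 11 were lower. For comparison, 12553 of all 21701 transcripts were higher in Wfs1KO than in WT islets. The part of the marker genes in the ratio was not tested.

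The 8 ratios of a member to the other 7 sum to 0 in every library, so a lower ratio of Ptprn2 entails higher ratios elsewhere. The largest of these, for Scg2 and Chgb, did not pass the test. Scg2 relative to the other 7 was 2.72, 2.89, 3.21 and 3.16 in WT and 3.61, 3.90, 3.51 and 3.10 in Wfs1KO islets, so that 3 of 4 Wfs1KO libraries were above all WT libraries and Wfs1KO replicate 4 was not. The difference was 0.54 (SE 0.20, exact permutation p = 0.0857). Chgb relative to the other 7 differed by 0.52 (SE 0.31, exact permutation p = 0.0857) and by 0.24 without WT replicate 1, and Scg3 relative to Scg2 by -0.57 (SE 0.28, exact permutation p = 0.0857). In the comparisons of Wfs1KO with Wfs1HZ and of Wfs1HZ with WT, 0 of 11 ratios passed the exact permutation test (lowest p = 0.114 and 0.2).

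**Figure D3:**
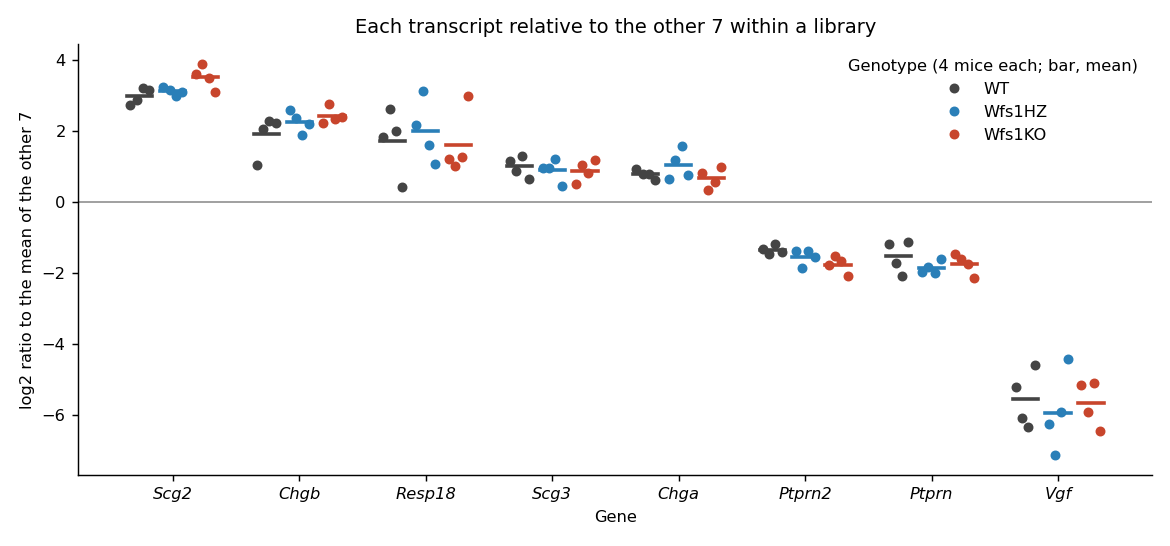
log2 ratio of each transcript to the mean of the other 7 in the same library, 1 point per mouse and bars at the mean of 4. Ptprn2 is the transcript whose WT points (-1.46 to -1.19) and Wfs1KO points (-2.08 to -1.53) do not overlap.

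From animal to animal many of the granule transcripts rose and fell together. Over the 12 animals, 9 of the 28 pairs had a correlation of log2 values with an adjusted permutation p under 0.05 (Pearson's r, 100000 permutations, Benjamini-Hochberg over 28 pairs), and 8 pairs had one by Spearman's rho. These 9 pairs, with r of at least 0.70, are 32.1% of the 28, while 8.3% of all pairs among 13348 other transcripts had an r at least as high. All 21 pairs without Resp18 were positive, from 0.295 to 0.859, as were 74.5% of all pairs. On the RPKM scale Chgb and Scg2 had the highest r, by a narrow margin (r = 0.86, adjusted permutation p = 0.00385; rho = 0.80, adjusted p = 0.0251). Vgf and Ptprn followed (r = 0.86, adjusted permutation p = 0.00385; rho = 0.83, adjusted p = 0.0251), then Scg3 and Ptprn2 (r = 0.85; rho = 0.78) and the homologues Ptprn and Ptprn2 (r = 0.84; rho = 0.85). By Pearson's r Chga moved most closely with Scg3 (r = 0.82, adjusted permutation p = 0.00582), although by rank this pair did not pass (rho = 0.65, adjusted p = 0.0778). The order of the leading pairs was not stable. By rho Ptprn and Ptprn2 led, and on deviations from the genotype means Scg2 and Ptprn2 did (r = 0.94). After median-of-ratios scaling and quantile normalization Vgf and Ptprn led (r = 0.95 and 0.89), with Chgb and Scg2 at 0.91 and 0.73.

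Without the 2 animals farthest from the median of the first gene, r was 0.63 for Chgb and Scg2, 0.73 for Vgf and Ptprn, 0.72 for Scg3 and Ptprn2 and 0.69 for Ptprn and Ptprn2. After the genotype means were taken out, r was 0.85 for each of the first 3 of these pairs and 0.83 for the last. The 7 pairs with Resp18 lay between -0.51, with Vgf, and 0.35, with Scg3, and none passed on this scale. After quantile normalization the same 7 pairs lay farther apart, between -0.72, with Vgf, and 0.62, with Scg2. The number of pairs that passed was sensitive to scaling and to 1 library: it was 19 after median-of-ratios scaling, 6 after quantile normalization and 5 without Wfs1HZ replicate 2, in which 6 members were at their lowest. Under quantile normalization Scg2 and Chgb were no longer positively related to Vgf, Ptprn and Ptprn2 (r = -0.15 to -0.38), whereas all of these pairs stayed positive after median-of-ratios scaling (r = 0.63 to 0.82).

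**Figure D4:**
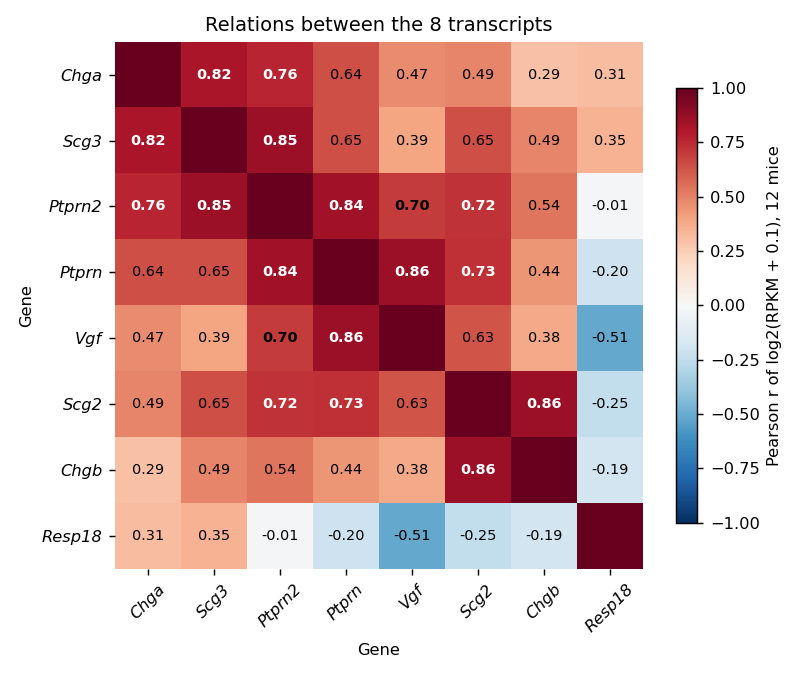
Pearson's r between log2(RPKM + 0.1) of each pair of transcripts over 12 mice, red positive and blue negative, with bold figures where the adjusted permutation p was under 0.05. Pairs without Resp18 are all positive (0.29 to 0.86), and no pair with Resp18 passed.

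The members were then set against the hormone transcripts and the acinar markers of the same libraries, 40 relations that were added after the data had been seen. On the RPKM scale Vgf was the member that followed insulin transcripts most closely. In the order WT, Wfs1HZ and Wfs1KO, replicates 1 to 4 each, Ins1 plus Ins2 came to 124742, 28368, 46213.5 and 168273 RPKM, then 40123, 11403, 120452 and 129574, then 82452, 66800.0, 32739.9 and 19015. The libraries with the highest insulin transcripts, WT replicate 4, Wfs1HZ replicate 4 and WT replicate 1, were those with the highest Vgf, and the library with the lowest, Wfs1HZ replicate 2, had the lowest. The correlation was r = 0.92 (adjusted permutation p = 0.0012) with rho = 0.93 (adjusted p = 0.0008, permutation). Without the 2 animals farthest from the median, r was 0.86, and on deviations from the genotype means it was 0.96. Under quantile normalization it was 0.52, below Ptprn (0.73) and Ptprn2 (0.65). After median-of-ratios scaling r was 0.94 for both Vgf and Ptprn and 0.91 for Ptprn2. The lead of Vgf thus depended on the scaling. Of 13345 other transcripts averaging 1 RPKM or more, 0.03% had an r with insulin transcripts at least as high on the RPKM scale. The Vgf and insulin values of an animal come from the same library and share its depth and its scale.

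Ptprn (r = 0.85, adjusted permutation p = 0.0118) and Ptprn2 (r = 0.80, adjusted permutation p = 0.0175) also rose with insulin transcripts by Pearson's r, but not by rank (rho = 0.79 and 0.73, adjusted p = 0.0612 and 0.0733). At least as high an r was held by 0.15% and 0.375% of other transcripts. Without the 2 farthest animals r was 0.76 for Ptprn and 0.53 for Ptprn2. Vgf fell as glucagon transcripts rose (r = -0.74, adjusted permutation p = 0.0437; rho = -0.75, adjusted p = 0.0733). Vgf also had a positive value with the acinar sum (r = 0.68, adjusted permutation p = 0.0836), which did not pass. Resp18 had positive values with Gcg (r = 0.72, adjusted permutation p = 0.0774) and Ppy (r = 0.69, adjusted p = 0.0827) and a negative one with the acinar sum (r = -0.68, adjusted p = 0.0827), none of which passed. As high an r with Gcg as that of Resp18 was held by 7.34% of other transcripts.

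Within the library, and so free of scaling, Vgf and Resp18 went opposite ways with the ratio of insulin to glucagon transcripts. Each of these genes is among the other 7 of the other's ratio, so their opposite directions are in part built in. The log2 ratio of insulin to glucagon transcripts was 1.07, -2.68, -1.25 and 1.20 in WT, -1.19, -3.77, 0.40 and 1.17 in Wfs1HZ, and 0.72, -0.20, -0.69 and -3.51 in Wfs1KO islets. The log2 ratio of Vgf to the other 7 members was -5.20, -6.07, -6.33 and -4.58 in WT, -6.25, -7.13, -5.92 and -4.41 in Wfs1HZ, and -5.14, -5.91, -5.10 and -6.44 in Wfs1KO islets. It rose with the insulin to glucagon ratio (r = 0.85, adjusted permutation p = 0.00284 over the 8 members; rho = 0.89, adjusted p = 0.00272). The 3 libraries at 0.156 or below in that ratio lay apart from the other 9, which were at 0.422 or above. Among the 9, r was 0.79 (exact permutation p = 0.0174; rho = 0.78). Of other transcripts taken relative to the 8 members, 0.03% had as high an r over the 12 libraries.

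The log2 ratio of Resp18 to the other 7 members was 1.82, 2.63, 1.99 and 0.44 in WT, 2.16, 3.14, 1.61 and 1.07 in Wfs1HZ, and 1.20, 1.02, 1.28 and 2.98 in Wfs1KO islets. The 3 highest values were those of the 3 libraries with the lowest insulin to glucagon ratio, 1 of each genotype. The correlation was r = -0.89 (adjusted permutation p = 0.00136; rho = -0.86, adjusted p = 0.0028) and -0.91 on deviations from the genotype means. Among the 9 libraries alone it was -0.60 (exact permutation p = 0.0867; rho = -0.67), so the relation rests in part on the 3 libraries set apart. An r at least as low was held by 5.49% of other transcripts, so the value is not particular to Resp18. Ptprn relative to the other 7 had r = 0.65 (adjusted permutation p = 0.0653), and the remaining 5 members lay between -0.39 and 0.51.

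**Figure D5:**
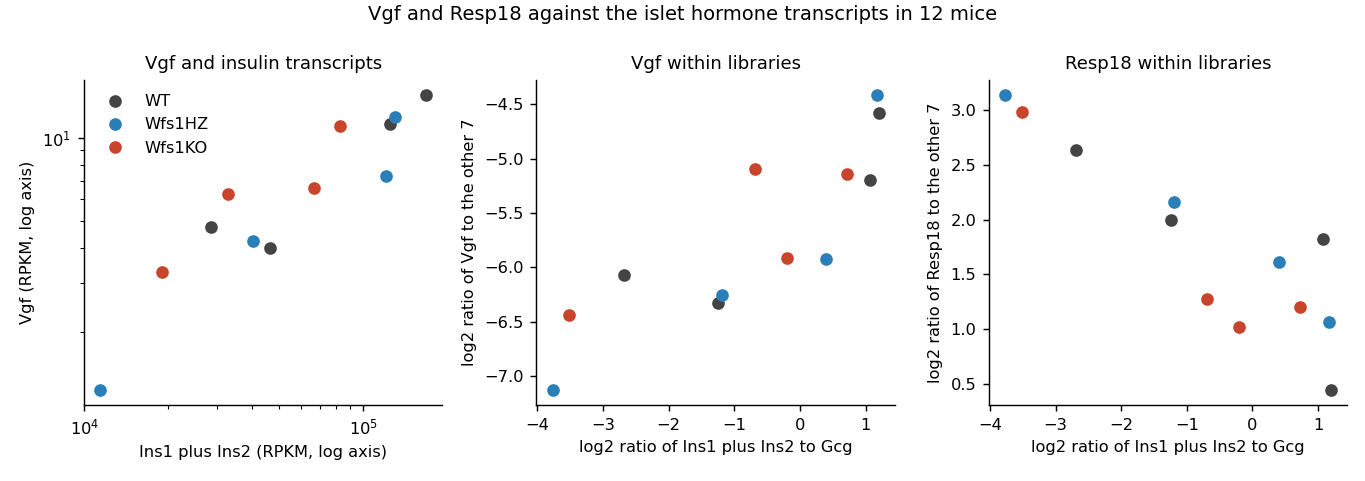
Left, Vgf against Ins1 plus Ins2 (RPKM, log axes); middle and right, log2 ratio of Vgf and of Resp18 to the other 7 members against the log2 ratio of Ins1 plus Ins2 to Gcg, 1 point per mouse, coloured by genotype. Vgf rises with insulin transcripts (r = 0.92) and its ratio with that of insulin to glucagon (r = 0.85), the ratio of Resp18 falls (r = -0.89), and the 3 libraries at the far left of the right-hand panel are 1 of each genotype.

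The members' common profile, the mean of their centred log2 values over the 12 animals, was followed most closely by Acd, Mapk3 and Sez6l2 among 13348 other transcripts of at least 1 RPKM. Their root mean square differences from it were 0.154, 0.162 and 0.176 log2 units. Among the members themselves Ptprn2 (0.212) and Scg3 (0.233) were nearest to that profile, of which each is itself a part, and Vgf (0.685) and Resp18 (0.702) farthest.

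Other genes of the granule were taken from 5 lists: granin-like partners, prohormone processing enzymes, granule biogenesis and sorting, granule transport, docking and release, and granule membrane transport and acidification. Of the 51 that could be tested, 0 passed the adjusted limma test in any of the 3 comparisons. Between Wfs1KO and WT, 6 of the 51 (11.8%, against 5.64% of all transcripts) had an unadjusted p under 0.05 and all 6 were lower, 5 of them of the 24 transport, docking and release genes. Lower means were held by 33 of the 51 and by 42.2% of all transcripts. The median difference of the 51 was -0.12, beside 0.07 for all transcripts and -0.26 for the 8 members. It was 0.11 between Wfs1KO and Wfs1HZ (3 genes, or 5.88%, with an unadjusted p under 0.05, against 2.45% of all transcripts) and -0.30 between Wfs1HZ and WT (1 gene, or 1.96%, against 2.35%). In Wfs1HZ islets 44 of the 51 had lower means than in WT islets, against 46.5% of all transcripts. In Wfs1KO islets 32 had higher means than in Wfs1HZ islets, against 53.5% of all. These shares of all transcripts depend on the floor and on single libraries. Among transcripts averaging 1 RPKM or more, 8135 of 13357 were higher in Wfs1KO than in Wfs1HZ islets. Of the same 13357, 5733 were higher in Wfs1HZ than in WT islets. Of all 21701 transcripts, 11609 were higher in Wfs1HZ than in WT islets, 7150 without Wfs1HZ replicate 2 and 15287 without Wfs1HZ replicate 4.

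Slc30a8, the zinc transporter of the insulin granule, had the lowest p of the 51. It was 76.3, 69.1, 70.0 and 37.2 RPKM in WT and 13.3, 17.3, 16.4 and 53.9 in Wfs1KO islets, a difference of -1.51 (SE 0.43, limma adjusted p = 0.835). Wfs1KO replicates 1 to 3 were below every WT library and replicate 4 was not. The calcium sensor Syt5 differed by -1.10 (SE 0.35), Syt9 by -0.88 (SE 0.33) and the plasma membrane SNARE Stx1a by -0.85 (SE 0.31), each with a limma adjusted p of 0.835. Stx1a was 1.17 to 2.56 RPKM in Wfs1KO and 2.80 to 4.19 in WT islets, without overlap, as were 2.74% of all transcripts. Its Wfs1HZ range, 1.72 to 5.03 RPKM, overlapped both. Snap25, of the same list, was also lower without overlap (84.2 to 144.7 RPKM in Wfs1KO and 147.3 to 166.1 in WT islets).

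The 4 enzymes that process prohormones and granins had lower means in Wfs1KO islets without passing the test: Pcsk1, the first convertase of proinsulin, was 26.1 ± 14.8 RPKM in WT and 12.8 ± 4.14 in Wfs1KO islets (difference -0.89, SE 0.41, limma adjusted p = 0.879), Pcsk2 differed by -0.34 and the amidating enzyme Pam by -0.26. All 4 also had lower means in Wfs1HZ than in WT islets, with a median difference of -0.58 beside -0.34 between Wfs1KO and WT. In Wfs1KO islets 3 of the 4 were higher than in Wfs1HZ islets. Pcsk2 was 115 to 220 RPKM in Wfs1HZ and 251 to 296 in WT islets, without overlap, as were 1.66% of all transcripts. Scg5, the chaperone of Pcsk2, was 421 ± 150 RPKM in WT and 429 ± 119 in Wfs1KO islets, and Pcsk1n, whose product inhibits Pcsk1, differed by 0.41 (SE 0.45). Of the sorting genes, Arfip2 differed by 0.38, the AP-3 subunit Ap3b1 by -0.32 and the protease Bace2 by -0.64. The proton pump subunit Tcirg1 differed by 0.35 and the chloride transporter Clcn3 by 0.22. None of these 14 genes, nor Snap25, passed the adjusted test.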

How the data were processed

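Pancreatic islets of 12 male mice, 4 per genotype, were sequenced from 10 ng of total RNA each (Ovation RNA-Seq System V2 cDNA, SOLiD 5500xl, 75 bp forward and 35 bp reverse reads, mapped by the authors to mm10 with LifeScope). The deposited table holds RPKM values per transcript to 2 decimals, made by the authors; the tool and annotation behind the RPKM are not given in the sources used here. Because RPKM are not counts, values were tested as log2(RPKM + 0.1) with limma 3.58.1 (R 4.3.3), with a trend in the variance, on each pair of genotypes, over the transcripts averaging 0.1 RPKM or more, with Benjamini-Hochberg adjustment. A fold change on this scale understates the change of low transcripts. Differences of single members and of ratios within a library were tested by exact two-sided permutation, and relations across animals with 100000 permutations (Python 3.11.15, numpy 2.4.6, scipy 1.17.1). The scripts were tested on simulated data.

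Each member passed the filter. Depth per library was estimated from RefSeq transcripts under 200 bases, whose RPKM were whole multiples of 1 read (tolerance 0.05) in 95.7% to 100.0% of cases, which gave 2181500 to 9589500 reads; depth limits Vgf most. The smallest depth that fitted was taken, and the paper reports more reads per sample. Values for single libraries carry counting error that the estimate covers only roughly. No pair of libraries was identical, and Spearman's rho between libraries was 0.823 to 0.939.

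Groups came from the sample labels, in which the replicates are separate animals and nothing pairs them across genotypes. Not every pair of same-numbered animals deviated together, so the numbers were not used as pairs. The members and lists were chosen with earlier results of these data known. The text names the 8 members, Wfs1, the 3 genes of each granule list with the lowest limma p between Wfs1KO and WT (both genes of the list of 2) and the 3 transcripts closest in profile to the members. Stx1a, Slc30a8, Syt5 and Syt9 entered by that rule. Snap25 and Npas4 did not, and are named because their ranges in Wfs1KO and WT islets did not overlap. The list entries Hid1, Ccdc186, Cltrn and Atp6v0a3 (another name of Tcirg1, which was tested) were not analysed here. Alternatives were pseudocounts of 1 and 0.01, no filter, a floor of 1 RPKM on the average, quantile and median-of-ratios scaling, other variance models, sample weights, all 12 samples in 1 fit, a replicate block, and leaving out each animal. Gene positions are from GENCODE M21.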

Additional observations from a re-analysis of the deposited data

Results flagged for a closer look

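Single animals were compared with the other 3 of their genotype by Dixon's test, for the 8 members and for the 11 ratios in each genotype, 57 groups in all. Chance alone marks about 1 in 20 groups, and 3 were marked. Resp18 in Wfs1HZ replicate 4 was 330.7 RPKM, below the other 3 Wfs1HZ libraries (680.0 to 714 RPKM); that library had an acinar sum of 297345 RPKM, the highest of the 12, and its part in the value was not tested. The log2 ratio of Resp18 to the other 7 members in Wfs1KO replicate 4 was 2.98, above the other 3 Wfs1KO libraries (1.02 to 1.28); the library had an insulin to glucagon transcript ratio of 0.0876. The log2 ratio of Ptprn2 to Ptprn in Wfs1KO replicate 1 was -0.25, below the other 3 (0.04 to 0.07).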

How the results depend on the processing

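No member and no granule gene passed the adjusted limma test in any comparison under any alternative, with adjusted p for the members from 0.610 upward. The number of members with an unadjusted p under 0.05 between Wfs1KO and WT was 1 after quantile normalization and 0 to 1 over the fits that leave out 1 animal (1 without Wfs1KO replicate 1 or replicate 2), and between Wfs1HZ and WT 0 to 1 (1 without WT replicate 3). Small differences changed sign. With sample weights Vgf was 0.03 between Wfs1KO and WT and Scg3 -0.28 between Wfs1KO and Wfs1HZ, and between Wfs1HZ and WT Chga was 0.44, Chgb 0.29, Scg2 0.14, Scg3 0.11 and Resp18 0.03. Quantile normalization gave 0.03 for Chga, 0.21 for Chgb and 0.09 for Resp18 between Wfs1HZ and WT, and median-of-ratios scaling 0.02 for Chgb. Leaving out 1 animal, the differences between Wfs1KO and WT ran from -0.55 to 0.06 for Vgf, from -0.60 to 0.00 for Resp18 and from -0.13 to 0.26 for Scg5. Those between Wfs1KO and Wfs1HZ ran from -0.38 to 0.20 for Chga, -0.09 to 0.46 for Scg3, -0.20 to 0.85 for Vgf, -0.49 to 0.09 for Resp18 and -0.38 to 0.23 for Ptprn2. Those between Wfs1HZ and WT ran from -0.47 to 0.12 for Chga, -0.18 to 0.20 for Chgb, -0.38 to 0.04 for Scg2 and -0.43 to 0.18 for Resp18. Of the 24 differences of members, 12 kept their sign throughout. The ratio of Ptprn2 to the other 7 members kept its sign and, with pseudocounts of 1 and 0.01, its exact p. The causes were not tested.

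The number of member pairs with an adjusted p under 0.05 was 9, and 19 after median-of-ratios scaling, 14 on deviations from the genotype means and 5 to 12 when 1 animal was left out (5 without Wfs1HZ replicate 2). The relations to hormone and acinar transcripts numbered 4, and 9, 8 and 2 to 4 in the same settings (2 without Wfs1HZ replicate 2, Wfs1HZ replicate 3 or Wfs1KO replicate 4). The alternatives to these relations that leave out animals or take deviations were chosen after seeing the data.

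The labels give no pairing by replicate number. Correlations of deviations between same-numbered animals were -0.134 to 0.0615 for Wfs1KO and WT, -0.174 to 0.0854 for Wfs1KO and Wfs1HZ and -0.0543 to 0.228 for Wfs1HZ and WT, and the best match of an animal was its own number in 1, 0 and 3 of 4 cases, a hint for the last comparison from the data and not from the design. With a replicate block, 0 members passed in each comparison, and transcripts with an unadjusted p under 0.05 numbered 1091, 395 and 854 against 1225, 532 and 511 without it. Depth limits Vgf most, with about 6.91 reads in its lowest library.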
